A study of Mus musculus with 8 samples.

Results

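Eosinophils sorted as SiglecFhi/CD101+ were compared with eosinophils sorted as Siglec-Fint/CD101-, using 2 RNA libraries of each subset, 4 of the 8 libraries in the study. The libraries were chosen by their sample titles. The study concerns resident lung eosinophils, their need for IL-5 and a mouse model of asthma. The remaining 4 libraries, titled resident, served here to help filter genes, scale libraries and estimate the spread between libraries. They also give a range to read levels against. RNA was read near transcript ends by CEL-Seq, and each library holds whole-number counts per gene. All mice were C57BL/6. The labels give no further genotype, allergen, treatment, time, age or sex for either subset, and separate animals are not named for the replicates, so a p-value here reflects the spread of these samples alone, which could be technical.

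Eosinophils are granulocytes that need IL-5 to mature and survive and that store cationic proteins and ribonucleases in their granules. In mouse lung, cells with intermediate Siglec-F and no CD101 are known as the steady-state population of the parenchyma, and cells with high Siglec-F and CD101 as the population recruited in allergic inflammation. Siglec-F is an inhibitory sialic acid-binding lectin of eosinophils and alveolar macrophages, and CD101 is an immunoglobulin superfamily receptor of myeloid and T cells.

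The Siglec-Fint/CD101- libraries held 1517159 counts (replicate 1) and 2990294 counts (replicate 2), and the SiglecFhi/CD101+ libraries held 3109428 and 1513517. Transcripts of the mitochondrial genome took 69.9% and 83.9% of the counts in the Siglec-Fint/CD101- libraries and 82.2% and 70.6% in the SiglecFhi/CD101+ libraries. This left 456930 and 481468 other counts in the first subset and 552121 and 444902 in the second, against 2137819 to 5296468 in resident libraries. Depth outside the mitochondrial genome was therefore similar in the 4 subset libraries. With every library thinned to 444902 such counts, 7301 and 8373 genes were detected in the Siglec-Fint/CD101- libraries and 10433 and 9214 in the SiglecFhi/CD101+ libraries, so both SiglecFhi/CD101+ libraries showed more genes at equal depth.

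Libraries of 1 subset were hardly more alike than libraries of different subsets. Across the 11828 genes tested, which are not independent replicates, the Spearman rank correlation of log2 CPM (counts scaled to a common library size) was 0.43 between the Siglec-Fint/CD101- replicates and 0.41 between the SiglecFhi/CD101+ replicates. It lay between 0.38 and 0.40 for the 4 pairs of libraries from different subsets, and between 0.70 and 0.78 for the deeper resident pairs. Genes that were abundant in 1 replicate were often missing from the other. Of the 2381 genes with at least 50 counts in SiglecFhi/CD101+ replicate 1, 382 had no count in replicate 2, and of the 2098 such genes in Siglec-Fint/CD101- replicate 2, 363 had none in replicate 1. In the other directions it was 259 of 2070 and 191 of 1709. These shares were 11.2% to 17.3% between replicates and 9.8% to 21.6% between libraries of different subsets. Only 559 genes outside the mitochondrial genome reached 50 counts in all 4 libraries, of 4583 that did so in at least 1.

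The distance between libraries depended on level more than on subset. Among the 2663 genes with a mean of 16 to 64 CPM over the 4 libraries, the median absolute log2 difference was 1.90 between the Siglec-Fint/CD101- replicates, 1.75 between the SiglecFhi/CD101+ replicates and 1.84 across subsets. Among the 121 genes of 256 to 1024 CPM it was 0.70, 0.56 and 0.59. In both classes pairs from different subsets lay between the 2 replicate pairs. They lay slightly above both among the 583 genes of 64 to 256 CPM, at 1.04 against 0.99 and 0.93, and among the 8425 genes below 16 CPM, at 1.22 against 0.88 and 1.19.

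**Figure D1:**
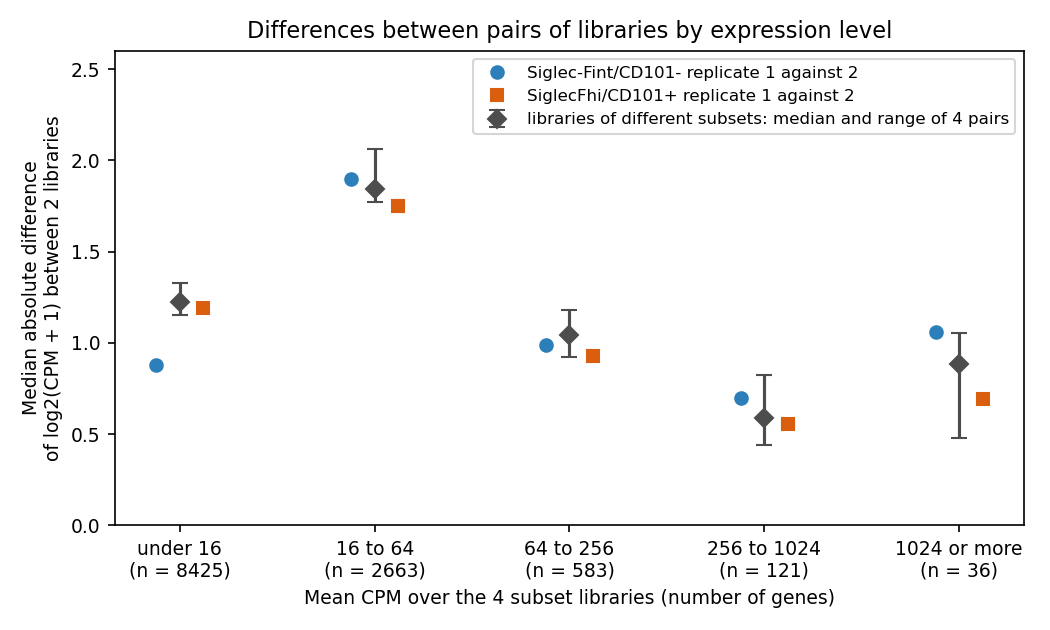
Median absolute difference of log2(CPM + 1) between 2 libraries (vertical axis) for genes grouped by mean CPM over the 4 subset libraries (horizontal axis). Circles are the Siglec-Fint/CD101- pair, squares the SiglecFhi/CD101+ pair and diamonds the median of the 4 pairs from different subsets with their range; at 16 to 64 CPM all lie between 1.75 and 2.06, and the replicate pairs lie on either side of the median across subsets.

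Arhgap1, which encodes a GTPase-activating protein of small GTPases, was the single gene that passed the test, and it was higher in SiglecFhi/CD101+ cells. It had 1 count in each Siglec-Fint/CD101- library, and 361 and 574 counts in the SiglecFhi/CD101+ libraries. As CPM scaled for library composition these are 0.727 and 0.621 against 191 and 350, and the subsets did not overlap. The resident libraries lay between them, at 27.5 to 58.6 CPM. The ratio of the subsets was 396, with an exact 95% counting interval of 109 to 3274 that covers counting error only. Its Benjamini-Hochberg adjusted p from the quasi-likelihood test of edgeR was 0.00957. The gene lies at chr2:91649860-91672326 on the plus strand in the GENCODE annotation of GRCm38 (ENSMUSG00000027247). Without Siglec-Fint/CD101- replicate 1, Siglec-Fint/CD101- replicate 2 or SiglecFhi/CD101+ replicate 2 its adjusted p by edgeR became 0.0916, 0.0761 and 0.0935. It was 0.365 when the 4 subset libraries were fitted alone and 0.765 with limma-voom.

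Arhgap1 is 1 of 11828 genes tested, or 0.00845% higher in SiglecFhi/CD101+, and 0 genes (0.0%) passed as lower by edgeR. At an unadjusted p under 0.05, edgeR counted 1180 genes higher (9.98%) and 941 lower (7.96%). DESeq2 called 712 genes higher (7.8% of the 9134 genes to which it gave an adjusted p) and 557 lower (6.1%), while limma-voom called 0 in either direction, with 425 and 325 at an unadjusted p under 0.05. The CPM of the subsets did not overlap for 1872 genes that were higher in both SiglecFhi/CD101+ libraries (15.8%) and for 1404 that were lower in both (11.9%). These shares are of all 11828 genes, 811 of which had 0 counts in all 4 subset libraries and cannot be separated. Among the 740 genes with a mean of at least 64 CPM the balance was the other way, with 74 higher (10%) and 201 lower (27.2%). That excess among abundant genes depended on scaling: it was 97 higher and 171 lower when libraries were scaled by their counts outside the mitochondrial genome, and 95 and 105 when scaled by total counts, which moved the median log2 difference of all genes from 0 to 0.20.

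**Figure D2:**
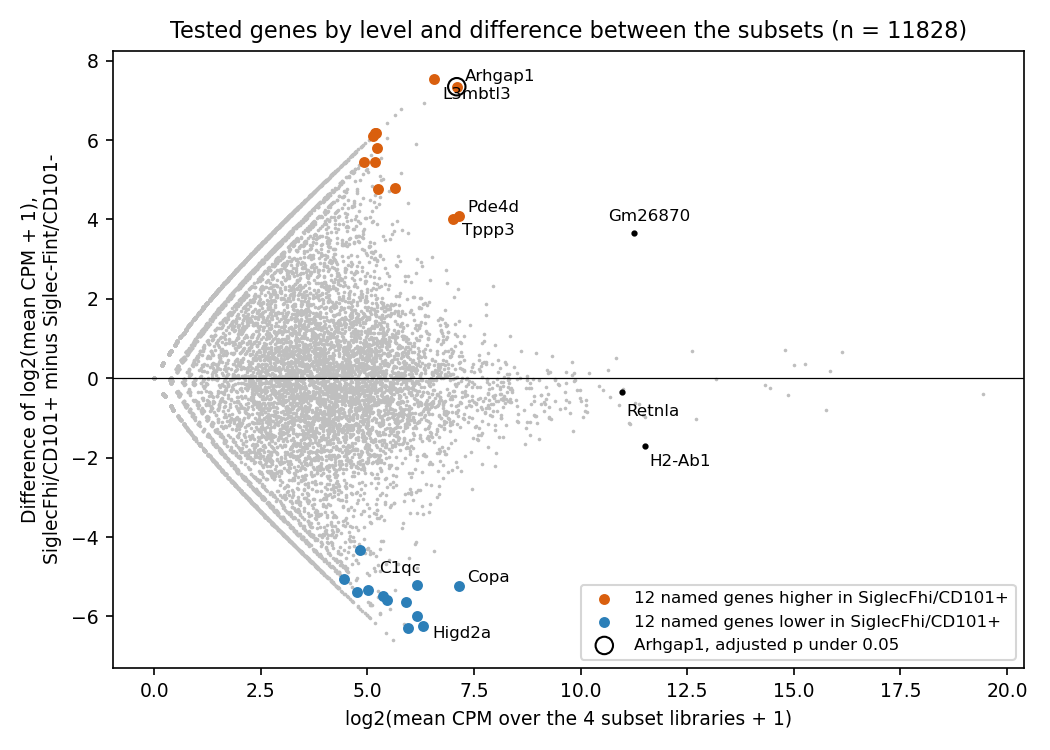
Each of the 11828 tested genes by log2(mean CPM + 1) over the 4 subset libraries (horizontal axis) and the difference of log2(mean CPM + 1), SiglecFhi/CD101+ minus Siglec-Fint/CD101- (vertical axis). Coloured points are the 12 genes with the smallest p in each direction, the ring marks Arhgap1, the 1 gene that passed the test, and black points mark Gm26870, H2-Ab1 and Retnla.

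The other 11 genes with the smallest p among those higher in SiglecFhi/CD101+ cells did not pass, with adjusted p by edgeR from 0.0918 to 0.156. L3mbtl3, a chromatin reader that binds methylated lysines (chr10:26274468-26375971, GRCm38), was without a count in either Siglec-Fint/CD101- library and had 276 and 368 in the SiglecFhi/CD101+ libraries. Set against 3 counts in each library, the floor used for a subset without counts (a mean of 2.02 CPM here), it was at least 91.7-fold higher (adjusted p = 0.0918 by edgeR). Its 2 SiglecFhi/CD101+ values, 146 and 224 CPM, also lay above the resident range of 1.67 to 15.3 CPM. Pde4d, a phosphodiesterase that breaks down cyclic AMP, had 16.7 and 13 CPM in the Siglec-Fint/CD101- libraries and 223 and 313 CPM in the SiglecFhi/CD101+ libraries. Replicates of Pde4d lay close together, and its log2 difference was 4.17 ± 0.78 (approximate SE, the difference divided by the square root of the F statistic; adjusted p = 0.106 by edgeR). Tppp3, a tubulin-binding protein also listed here as a ciliated cell marker, had 10.2 and 18 CPM against 348 and 135 CPM. The log2 difference of Tppp3 was 4.09 ± 0.72 (adjusted p = 0.105 by edgeR). The rule that took these genes required no overlap between subsets, so their lack of overlap was fixed in advance.

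The remaining 8 genes of this group were nearly silent in the Siglec-Fint/CD101- libraries. They include 3 kinases that act upstream of MAP kinases. Map3k1 had 0 and 0 counts against 211 and 39, at least 33.5-fold higher, and Map4k2 had 0 and 0 against 60 and 180, at least 35.01-fold higher. Map3k3 had 6 and 1 counts against 154 and 181. Replicates thus differed several-fold for Map3k1 and Map4k2 and little for Map3k3. Arhgap26, another GTPase-activating protein, had 3 and 2 counts against 125 and 129, with a log2 difference of 5.40 ± 1.05 (adjusted p = 0.106 by edgeR). Ywhag, the gamma member of the 14-3-3 adaptor proteins, had 1 and 0 counts against 130 and 78. Cdc5l, a component of the spliceosome, had 0 and 2 against 124 and 120. These 3 genes had similar counts in both SiglecFhi/CD101+ libraries. Gpat4, an acyltransferase of glycerolipid synthesis, had 0 and 1 counts against 204 and 60. Smim20, a small inner-membrane protein used in assembling cytochrome c oxidase, had 0 and 0 against 110 and 137 and was at least 35.1-fold higher. With 1 to 3 counts in the lower subset the ratios are loose: 176 for Ywhag (95% counting interval 31.3 to 6990.2), 103 for Cdc5l (28.3 to 858) and 224 for Gpat4 (39.8 to 8863).

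**Figure D3:**
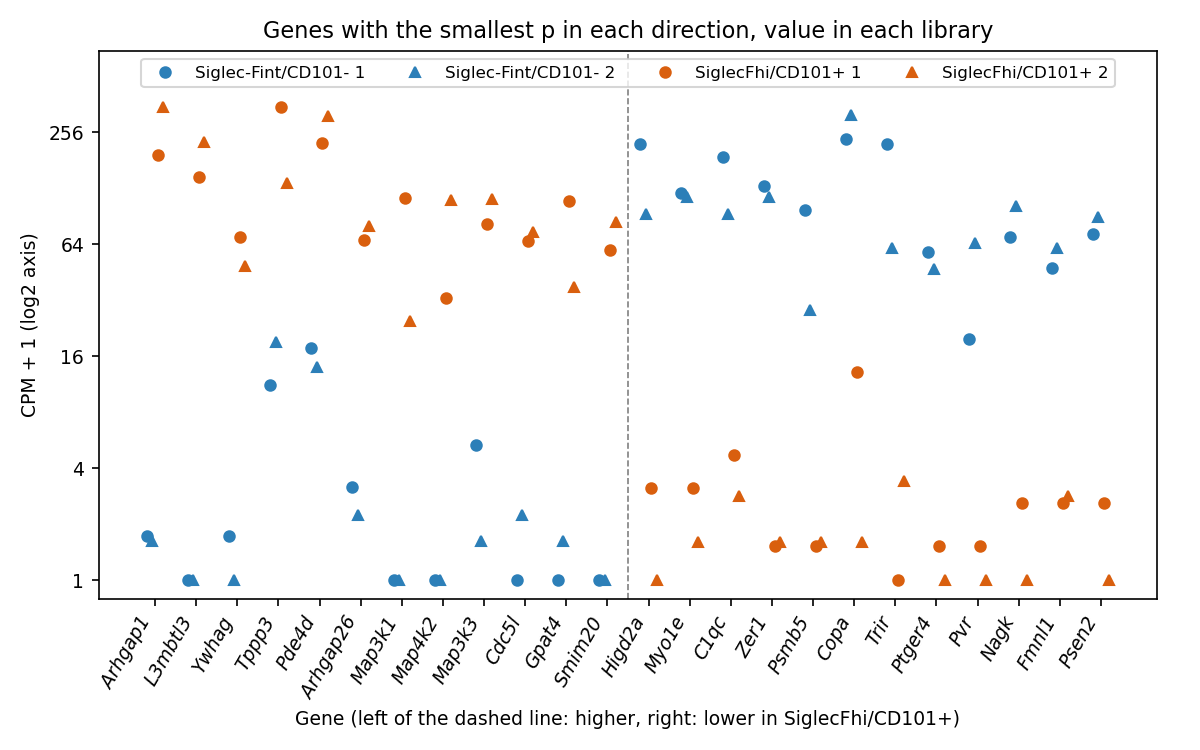
CPM + 1 on a log2 axis in each subset library for the 12 genes with the smallest p that were higher (left of the dashed line) and the 12 that were lower (right) in SiglecFhi/CD101+ cells. Blue symbols are Siglec-Fint/CD101-, orange symbols SiglecFhi/CD101+, circles replicate 1 and triangles replicate 2; the rule for naming them required that the subsets not overlap, and Arhgap1 is the 1 gene of the 24 that passed the test.

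The 12 genes with the smallest p among those lower in SiglecFhi/CD101+ cells did not pass either, with adjusted p by edgeR from 0.0918 to 0.164. Higd2a, which helps to assemble cytochrome c oxidase and respiratory supercomplexes (chr13:54590207-54591158, GRCm38), had 302 and 149 counts in the Siglec-Fint/CD101- libraries and 4 and 0 in the SiglecFhi/CD101+ libraries. Its log2 difference was -7.13 ± 1.17 (adjusted p = 0.0918 by edgeR), and both Siglec-Fint/CD101- values, 220 and 92.5 CPM, lay close to the resident range of 99.2 to 194 CPM. Myo1e, a motor of the membrane-associated class I myosins, had 164 and 184 counts against 4 and 1. Its log2 difference was -6.38 ± 1.16 (adjusted p = 0.106 by edgeR). Replicates of Myo1e were close in the Siglec-Fint/CD101- libraries, at 119 and 114 CPM, beside 2.12 and 0.610 CPM in the SiglecFhi/CD101+ libraries. The naming rule required that the subsets not overlap. Copa, a subunit of the COPI coat of Golgi vesicles, had 322 and 510 counts against 23 and 1, a log2 difference of -5.41 ± 1.05 (adjusted p = 0.106 by edgeR). Its value in SiglecFhi/CD101+ replicate 1 was the less low of the pair, and without that library Copa passed, with an adjusted p of 0.0325 by edgeR.

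The other genes lower in SiglecFhi/CD101+ cells were likewise at a few counts there. C1qc, a chain of complement C1q and a macrophage marker, had 256 and 148 counts against 7 and 3, and its log2 difference was -5.63 ± 1.07 (adjusted p = 0.106 by edgeR). C1qb, its partner chain, did not follow: its CPM were 438 and 80.7 against 82.2 and 143, so that the subsets overlapped. Fmnl1, a formin that builds actin filaments in leukocytes, had 64 and 97 counts against 3 and 3. Zer1, a substrate receptor of a cullin ubiquitin ligase, had 179 and 182 against 1 and 1, a ratio of 213 for Siglec-Fint/CD101- over SiglecFhi/CD101+ (95% counting interval 58.6 to 1767). Fmnl1 and Zer1 were even between replicates. Psmb5, a catalytic subunit of the proteasome, had 133 and 44 counts against 1 and 1, and Trir, an exoribonuclease, had 302 and 97 against 0 and 4. Ptger4, the EP4 receptor for prostaglandin E2, had 79 and 74 counts against 1 and 0, a ratio of 181 (31.9 to 7182). Pvr, a ligand of T and NK cell receptors, had 26 and 103 against 1 and 0. Psmb5, Trir and Pvr differed more than 2-fold between the Siglec-Fint/CD101- replicates and Ptger4 did not. Nagk, a sugar kinase of amino sugar salvage, had 95 and 163 counts against 3 and 0, and Psen2, a catalytic component of gamma-secretase, had 98 and 142 against 3 and 0.

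The sorting markers gave few counts. Siglecf had no count in either Siglec-Fint/CD101- library, where 3 counts would be 2.18 and 1.86 CPM, and 19 and 44 counts in the SiglecFhi/CD101+ libraries. It was at least 9.13-fold higher in the latter, which is the direction of the sort, and did not pass (adjusted p = 0.235 by edgeR). Cd101 had 0 and 1 counts against 2 and 1, too few to tell the subsets apart. Il5ra, the IL-5 receptor chain, and Epx, eosinophil peroxidase of the granules, had 0 counts in all 4 libraries, each of which allows up to 1.59 to 2.18 CPM. The files therefore do not show 2 of the defining eosinophil transcripts in either subset at this depth, and the labels' cell type is used here as a label. The deeper resident libraries held few as well, with 1, 0, 0 and 57 counts of Il5ra and 0, 0, 25 and 0 of Epx. The tables carry the letter R for the Siglec-Fint/CD101- samples and I for the SiglecFhi/CD101+ samples, without explanation, and groups follow the titles.

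Prg2, the major basic protein of eosinophil granules, was the granule gene that differed most. It had 1 and 3 counts in the Siglec-Fint/CD101- libraries and 73 and 385 in the SiglecFhi/CD101+ libraries, or 0.727 and 1.86 CPM against 38.7 and 235 CPM. The subsets did not overlap, and the log2 difference of 6.68 ± 1.47 did not pass (adjusted p = 0.156 by edgeR). Of 11 granule and ribonuclease genes 6 were tested, 0 passed, and Prg2 was the 1 member without overlap. That 1 of 6 is near the 15.8% of all tested genes that were higher in both SiglecFhi/CD101+ libraries. The eosinophil-associated ribonucleases, whose near-identical copies can share reads, went no single way. Ear2 had 210 and 149 counts against 88 and 196, and Ear1 had 0 and 98 against 15 and 13. Ear6 had 118 counts in Siglec-Fint/CD101- replicate 2 and 0 in the other 3 libraries, so it marks 1 library and not a subset.

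Among 19 receptors and lineage factors of eosinophils, 16 were tested and 0 passed, while 4 were higher in both SiglecFhi/CD101+ libraries, or 25% beside 15.8% of all tested genes, and 0 were lower in both. Gata2, a transcription factor of the eosinophil, basophil and mast cell lineages, had 13 and 1 counts against 204 and 112, a log2 difference of 4.14 ± 1.13 (adjusted p = 0.207 by edgeR). Adgre1, which encodes the surface protein F4/80, had 6 and 16 counts against 27 and 43. With Siglecf these are 3 of the 4, and each of the 3 rests on fewer than 25 counts in the Siglec-Fint/CD101- libraries together. Ccr3, the eotaxin receptor, had 33 counts in 1 Siglec-Fint/CD101- library and 8 in 1 SiglecFhi/CD101+ library, and 0 in the others. Of 12 mast cell and basophil markers 7 had 0 counts in all 4 libraries, among them Fcer1a, Mcpt8, Cma1 and Mcpt4.

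Of 18 receptors for granulocyte attractants 15 were tested and 0 passed. In both SiglecFhi/CD101+ libraries 3 were higher and 0 lower, and 3 of 15 is near the 15.8% of all tested genes. Cxcr2, a chemokine receptor best known on neutrophils, had 0 and 0 counts against 63 and 61 and was at least 17.5-fold higher (adjusted p = 0.199 by edgeR). Ltb4r1, the high-affinity receptor of leukotriene B4, had 0 and 0 against 24 and 35 and was at least 8.42-fold higher (adjusted p = 0.178 by edgeR). P2ry10, a lysophospholipid receptor, had 5 and 4 counts against 27 and 11. Among neutrophil markers Mpo, Elane and Camp had 0 counts in all 4 libraries, and the summed level of the 15 markers was 1074 and 1636 CPM in the Siglec-Fint/CD101- libraries and 594 and 1164 CPM in the SiglecFhi/CD101+ libraries, with overlap. Of the neutrophil markers 3 of 11 tested were higher in both SiglecFhi/CD101+ libraries, Cxcr2 included, and 0 were lower in both. These are 27.3% and 0%, beside 15.8% and 11.9% of all tested genes.

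Genes that signal for IL-3, IL-5 and GM-CSF, the cytokines that sustain eosinophils, were split. Of 16 tested 0 passed. In both SiglecFhi/CD101+ libraries 2 were higher (12.5%, beside 15.8% of all tested genes) and 4 lower (25%, beside 11.9%). With total counts 3 were lower in both. Csf2ra, the GM-CSF receptor alpha chain, had 229 and 34.1 CPM in the Siglec-Fint/CD101- libraries and 0.530 and 12.8 CPM in the SiglecFhi/CD101+ libraries, a log2 difference of -4.31 ± 1.14 (adjusted p = 0.199 by edgeR). A pair of feedback inhibitors of the pathway differed in sign. Socs3 had 113 and 103 CPM against 19.6 and 7.93 CPM, a log2 difference of -2.97 ± 0.84, and Socs2 had 9.45 and 2.48 CPM against 71.6 and 109 CPM, a log2 difference of 3.92 ± 1.12. Neither passed (adjusted p = 0.214 for both by edgeR), although neither overlapped between subsets.

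MHC class II chains, which present peptides to CD4+ T cells, were among the most abundant transcripts outside the mitochondrial genome in both subsets, by CPM not divided by length, since CEL-Seq reads 1 end of a transcript. H2-Ab1 had 4775 and 4118 CPM in the Siglec-Fint/CD101- libraries and 1446 and 1293 CPM in the SiglecFhi/CD101+ libraries. Replicates were close and the subsets apart, with a log2 difference of -1.70 ± 0.41 that did not pass (adjusted p = 0.172 by edgeR). H2-Eb1 had 4270 and 1942 CPM against 1423 and 1400 CPM, and Cd74, the invariant chain, had 4831 and 2888 CPM against 2355 and 1539 CPM. H2-Aa had 5481 and 1876 CPM against 1998 and 1854 CPM, and its subsets overlapped. Of 12 tested class II genes 0 passed and 0 were higher in both SiglecFhi/CD101+ libraries, beside 15.8% of all tested genes. The 3 genes H2-Ab1, H2-Eb1 and Cd74 were lower in both, or 25%, beside 11.9%. All 3 are among the list's 7 genes of at least 64 CPM, and 27.2% of all genes at that level were lower in both. The list's median log2 difference was -0.92, beside 0 over all tested genes, and ranged from -1.53 to 0.08 as each library was left out. At 64 CPM or more the median was -0.99 for the list and -0.34 for all genes. Scaled by total counts, 1 class II gene was lower in both and 1 higher.

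Class I and peptide-loading genes had 6 of 21 tested members lower in both SiglecFhi/CD101+ libraries and 0 higher, with 0 that passed. The 6 are 28.6%, beside 11.9% of all tested genes. They became 3 with total counts and 4 with counts outside the mitochondrial genome. Of the list's 7 genes of at least 64 CPM 4 were lower in both, beside 27.2% of all genes at that level. There the median log2 difference was -0.73 for the list and -0.34 for all genes. H2-K1 had 263 and 463 CPM against 260 and 177 CPM, and B2m, the common light chain, 1889 and 1983 CPM against 1627 and 1143 CPM. The step between subsets was small for both, with log2 differences of -0.73 ± 0.49 and -0.48 ± 0.38. Summed macrophage markers were 5890 and 2238 CPM in the Siglec-Fint/CD101- libraries and 2675 and 2359 CPM in the SiglecFhi/CD101+ libraries. Dendritic cell markers, which share class II expression, summed to 422 and 348 CPM against 221 and 169 CPM, without overlap. Of the 13, Irf8 was at 0 in all 4 libraries. Of 12 tested, 3 were lower and 2 higher in both SiglecFhi/CD101+ libraries (25% and 16.7%, beside 11.9% and 15.8% of all tested genes). With total counts 2 were lower and 2 higher. Ccl17, a large part of the first sum, had 196 and 21.7 CPM against 21.7 and 15.2 CPM, with overlap. The part of other cells in these differences was not tested. In sorted bulk RNA, fewer cells of a type and less RNA per cell cannot be told apart.

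**Figure D4:**
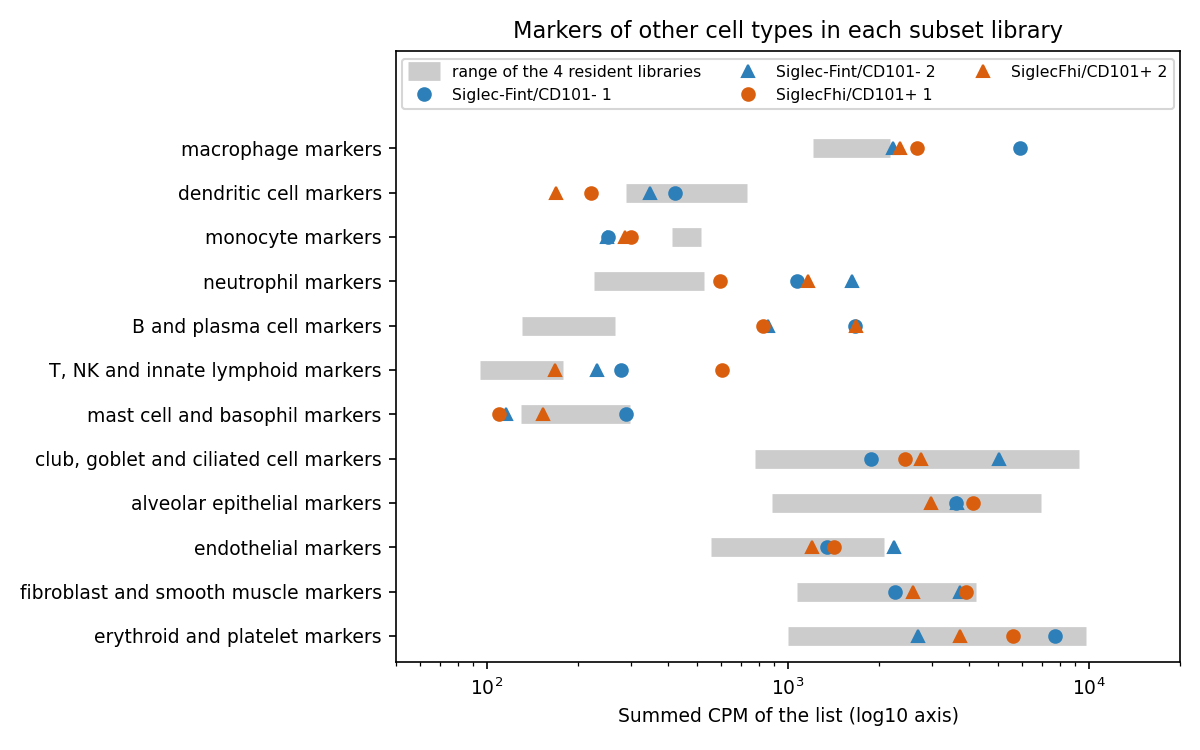
Summed CPM (log10 axis) of the markers of 12 other cell types in each subset library. Blue is Siglec-Fint/CD101-, orange SiglecFhi/CD101+, circles replicate 1, triangles replicate 2 and grey bars the range of the 4 resident libraries. At the scaling used, the dendritic cell sum was lower and the monocyte sum higher in both SiglecFhi/CD101+ libraries. The sums of the other 10 lists overlapped between subsets. The monocyte step was small, and these sums were made at this scaling alone, so their separation may depend on it.

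Markers of cells that a lung eosinophil sort should not hold were present in both subsets. Club, goblet and ciliated cell markers summed to 1888 and 5035 CPM in the Siglec-Fint/CD101- libraries and 2453 and 2758 CPM in the SiglecFhi/CD101+ libraries, and alveolar epithelial markers to 3616 and 3646 against 4100 and 2984 CPM. Haemoglobin and platelet markers summed to 7679 and 2692 against 5589 and 3733 CPM. These sums overlapped between subsets. B and plasma cell markers summed to 1670 and 859 against 825 and 1684 CPM, above the resident range of 131 to 266 CPM, although Igkc had 0 counts in all 4 libraries. T, NK and innate lymphoid markers reached 605 CPM in SiglecFhi/CD101+ replicate 1 and 168 to 279 CPM in the other 3. Endothelial markers had 6 of 14 tested members lower in both SiglecFhi/CD101+ libraries (11.9% of all tested genes) and 0 higher. With total counts 5 were lower and 2 higher, and with counts outside the mitochondrial genome 4 and 0. The sums of endothelial markers overlapped, with values of 1348 and 2242 against 1420 and 1197 CPM.

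Resistin-like and chitinase-like proteins are secreted in type 2 inflammation, and Retnla and Chil3 were abundant in both subsets. Retnla had 2990 and 1499 CPM in the Siglec-Fint/CD101- libraries and 2527 and 982 CPM in the SiglecFhi/CD101+ libraries, against 11.9 to 79.7 CPM in resident libraries. Chil3 had 4453 and 1534 CPM against 2143 and 1754 CPM. Both overlapped between subsets. Chil4, whose reads may be shared with its close copy Chil3, had 289 and 132 CPM against 50.4 and 33.5 CPM, a log2 difference of -2.33 ± 1.5 (adjusted p = 0.403 by edgeR). It was the 1 of 6 tested members without overlap, beside 11.9% lower and 15.8% higher of all tested genes.

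Cytokine genes of type 2 immunity were at low counts. Il4 had 11 and 14 counts in the Siglec-Fint/CD101- libraries and 0 and 0 in the SiglecFhi/CD101+ libraries, at least 4.88-fold lower in the latter. Il13 had 1 and 0 counts against 52 and 2, a ratio of 45.7 (95% counting interval 7.87 to 1839) that rests on 1 library. Of the 12 tested genes of the list 0 passed. In both SiglecFhi/CD101+ libraries 2 were higher and 2 lower, beside 15.8% and 11.9% of all tested genes.

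Chemokines are the secreted attractants. Of 19 tested 0 passed by edgeR, and 5 were lower and 2 higher in both SiglecFhi/CD101+ libraries, beside 11.9% and 15.8% of all tested genes. At an unadjusted p under 0.05 edgeR counted 8 lower and 0 higher (7.96% and 9.98% of all), and DESeq2 called 3 lower and 0 higher (6.1% and 7.8% of all). Ccl4, a chemokine of macrophages and other leukocytes, had 536 and 275 CPM against 57.8 and 162 CPM, a log2 difference of -1.89 ± 0.69 (adjusted p = 0.24 by edgeR). Ccl3, a related chemokine, had 406 and 128 CPM against 88.5 and 57.9 CPM. Both were separated between subsets. Ccl11, eotaxin-1, had 40 and 18 counts against 0 and 0, at least 11.8-fold lower in SiglecFhi/CD101+ cells, while Ccl22 was higher in both SiglecFhi/CD101+ libraries, at 59.9 and 61.6 CPM against 52.3 and 25.5 CPM. The median log2 difference of the list was -1.56, or -1.71 with genes without counts in a subset set at their bound, and ranged from -2.01 to -0.20 as each library was left out.

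Cytokines driven by NF-kB and early response factors were mixed. Il6 had 97 and 22 counts in the Siglec-Fint/CD101- libraries and 1 and 1 in the SiglecFhi/CD101+ libraries, a ratio of 70.3 for the former over the latter (19.0 to 587). Il1b had 274 and 255 CPM against 41.4 and 143 CPM, and Tnf had 34.9 and 54.0 CPM against 9.01 and 13.4 CPM. All 3 were without overlap and did not pass. Tnfaip2, an NF-kB target of myeloid and endothelial cells, had the other sign, at 5 and 1 counts against 98 and 55. Their list held 21 tested genes, of which 0 passed, 5 were lower and 3 higher in both SiglecFhi/CD101+ libraries. These are 23.8% and 14.3%, beside 11.9% and 15.8% of all tested genes. With total counts 3 genes of the NF-kB list were lower and 2 higher. Egr2, an early growth response factor, had 104 and 32 counts against 0 and 0 and was at least 27.9-fold lower in SiglecFhi/CD101+ cells (adjusted p = 0.178 by edgeR). Nr4a1, an orphan nuclear receptor of the early response, had 39.3 and 31.0 CPM against 108 and 91.5 CPM. Egr2 and Nr4a1 are thus separated in opposite directions, within a list of 24 tested genes of which 0 passed. In that list 3 were higher and 6 lower without overlap, or 12.5% and 25%, beside 15.8% and 11.9% of all tested genes. With total counts 5 were higher and 5 lower.

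Genes of the BCL2 family and of caspases set the balance of survival and death. Of 19 tested 0 passed by edgeR, and 7 were lower and 2 higher in both SiglecFhi/CD101+ libraries, beside 11.9% and 15.8% of all tested genes. Under both other scalings 5 were lower. DESeq2 called 4 lower and 1 higher, beside 6.1% and 7.8% of all. Bmf, a death-promoting member, had 30 and 63 counts against 0 and 0, at least 17.8-fold lower in SiglecFhi/CD101+ cells (adjusted p = 0.172 by edgeR). Pmaip1, which encodes NOXA, had 30 and 41 counts against 0 and 2. Mcl1, a survival factor, was also lower, at 96.0 and 135 CPM against 64.1 and 12.2 CPM. Members of opposite function therefore lay on the same side. Bcl2a1a, another survival member with near-identical copies, had 18 and 1 counts against 51 and 79, and Casp8 was carried by 1 library, with 3 and 148 counts against 1 and 3. The list's median log2 difference of -1.60 ranged from -2.66 to 0.00 as each library was left out.

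Nuclear genes of oxidative phosphorylation, which build the respiratory chain with the mitochondrial genome's products, had, at the scaling used, the largest share of members lower in both SiglecFhi/CD101+ libraries among the 27 lists of cell programmes. These were 15 of 32 tested, or 46.9% beside 11.9% of all tested genes, with 1 higher in both and 0 that passed by edgeR. Of its 12 members of at least 64 CPM 7 were lower in both, beside 27.2% of all genes at that level. Ndufs5, an accessory subunit of complex I, had 127 and 84 counts against 4 and 15, a log2 difference of -3.68 ± 1.3 (adjusted p = 0.239 by edgeR). Atp5j2, a subunit of ATP synthase, had 230 and 135 CPM against 50.9 and 56.7 CPM, a log2 difference of -1.77 ± 0.70 (adjusted p = 0.244 by edgeR). Uqcrq and Atp5j, subunits of complex III and ATP synthase, had 181 and 171 against 92.8 and 109 CPM and 185 and 159 against 117 and 97.6 CPM. Replicates of Uqcrq and Atp5j were close and their step was below 2-fold, while the SiglecFhi/CD101+ replicates of Ndufs5 were several-fold apart. Ndufa2 of complex I was the 1 member higher in both, at 26.2 and 68.3 CPM against 80.1 and 107 CPM.

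The median log2 difference of the oxidative phosphorylation list was -0.63, between -0.71 and -0.51 under other scalings and between -1.07 and -0.45 as each library was left out. With libraries scaled by counts outside the mitochondrial genome 12 of 32 were lower in both SiglecFhi/CD101+ libraries, and with total counts 6, so the count depends on scaling and the sign of the median did not in these fits. The 740 genes of at least 64 CPM had a median of -0.34, to which the list's abundant members belong. The 13 protein genes of the mitochondrial genome showed no such lean. Their median was 0.19 and 0 of 13 were separated, but 7 were higher in both SiglecFhi/CD101+ libraries when scaled by total counts. For example, mt-Nd2 had 10593 and 32714 CPM against 48234 and 22597 CPM, which overlapped.

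Of actin and motility genes 11 of 32 tested were lower in both SiglecFhi/CD101+ libraries (34.4%, beside 11.9% of all tested genes), 3 were higher and 0 passed by edgeR. Of the list's 21 genes of at least 64 CPM 7 were lower in both, near the 27.2% of all genes at that level. Actb had 4488 and 1793 CPM in the Siglec-Fint/CD101- libraries and 1543 and 1283 CPM in the SiglecFhi/CD101+ libraries, a log2 difference of -1.15 ± 0.45 (adjusted p = 0.243 by edgeR). Tmsb10, which binds actin monomers, had 313 and 276 CPM against 103 and 115 CPM, a log2 difference of -1.43 ± 0.54 (adjusted p = 0.242 by edgeR). Tmsb10 was even between replicates, while Actb in Siglec-Fint/CD101- replicate 1 stood well above the other 3 libraries. Selplg, the ligand of P-selectin, had 108 and 154 CPM against 34.5 and 31.7 CPM, and Itgb7, an integrin beta chain, 53.1 and 120 CPM against 12.2 and 12.8 CPM. Both belong to a list of integrins and selectin ligand with 3 of 11 tested lower in both, 1 higher and 0 that passed. These are 27.3% and 9.09%, beside 11.9% and 15.8% of all tested genes. With total counts 2 genes of the integrin list were lower in both and 2 higher. With total counts the actin list had 5 lower in both and 3 higher.

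**Figure D5:**
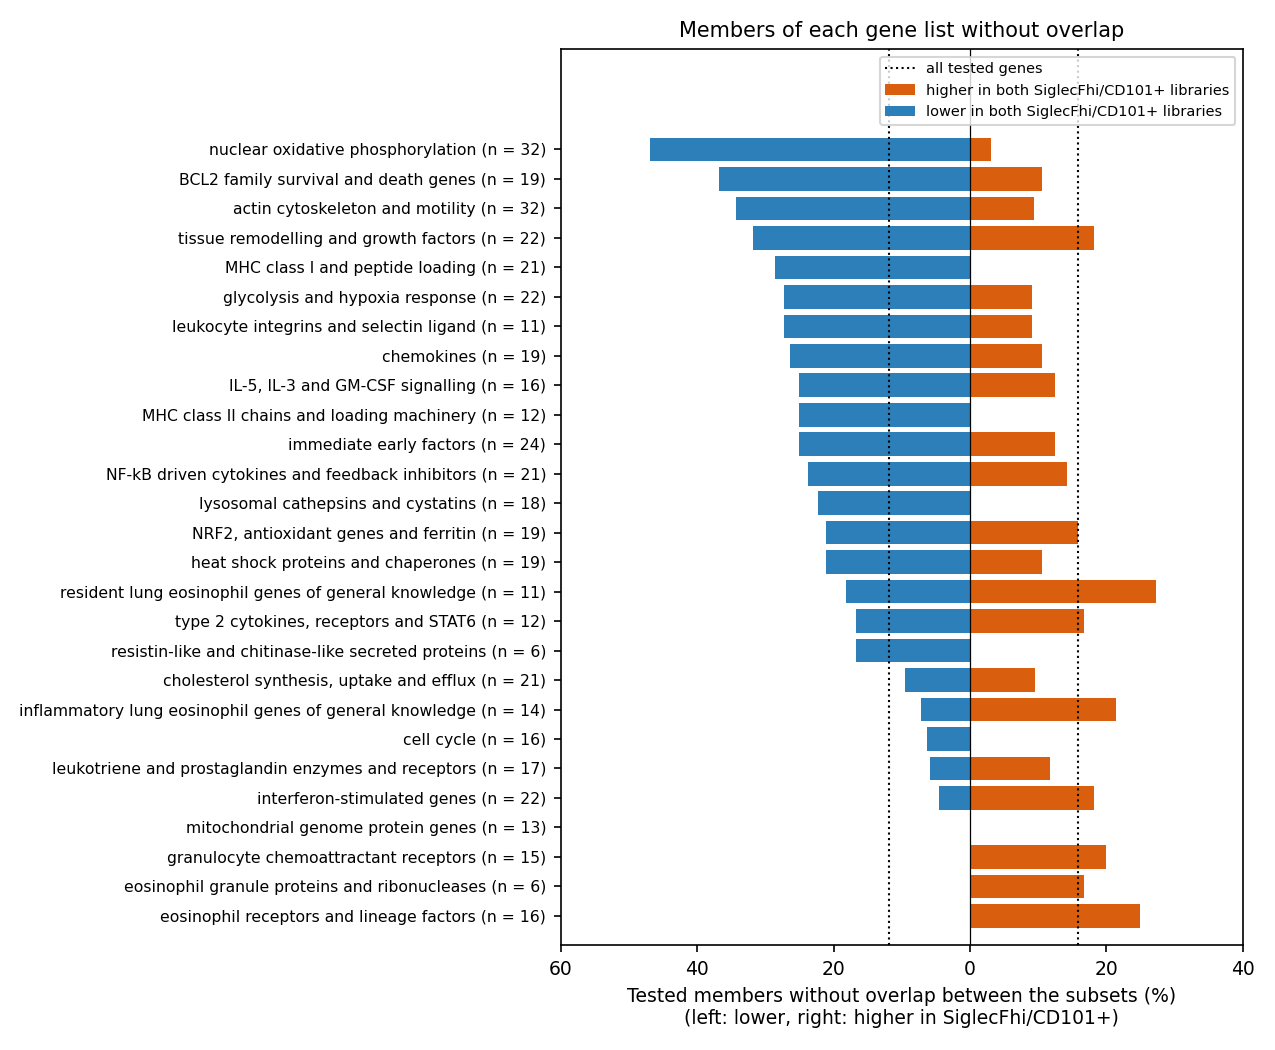
Share of the tested members of each of 27 lists of cell programmes that were lower (blue, to the left) or higher (orange, to the right) in both SiglecFhi/CD101+ libraries than in both Siglec-Fint/CD101- libraries. Dotted lines mark the shares over all tested genes, 11.9% lower and 15.8% higher; oxidative phosphorylation reaches 15 of 32 genes to the left, and eosinophil receptors 4 of 16 to the right with 0 to the left.

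Among the other abundant transcripts, the noncoding gene Gm26870 stood apart. It had 338 and 375 CPM in the Siglec-Fint/CD101- libraries and 1868 and 7160 CPM in the SiglecFhi/CD101+ libraries, against 24.1 to 86.6 CPM in resident libraries. Its log2 difference was 3.66 ± 0.66 (adjusted p = 0.106 by edgeR), and reads of such repeat-rich loci may be placed in the wrong locus. Gm42418, a noncoding locus known to collect ribosomal RNA reads, had 8079 and 9849 CPM against 6752 and 2116 CPM. Both were without overlap, in opposite directions. Rpl4, a protein of the large ribosomal subunit, had 1825 and 1144 against 1955 and 1486 CPM, with overlap. The secretoglobin Scgb1a1 of club cells had 1728 and 4721 against 1693 and 2438 CPM, and the haemoglobin gene Hba-a2 3616 and 833 against 2092 and 1617 CPM, both with overlap.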

How the data were processed

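RNA of sorted eosinophils was sequenced by CEL-Seq in 8 libraries, 2 of each subset and 4 titled resident. The authors deposited 1 table of unnormalized counts per Ensembl gene for each library, and library totals are unequal, as in raw counts. Per the submitters' processing notes, FastQC 0.11.5, Trim Galore, cutadapt 1.10, TopHat2 2.1.0, Bowtie2 2.2.6, HTSeq 0.6.1 and DESeq2 1.28.0 were used. Not given in the sources used here: roles, settings, genome build, annotation, strand and use of molecular identifiers. Counting reads in place of molecules would let amplification widen the spread and make counting intervals too narrow. Genes with near-identical copies (Ear, Chil3 and Chil4, Bcl2a1, haemoglobin) or overlapping partners may share reads.

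Each table had 54446 gene rows, none of them blank or a summary row, and 54409 matched a GENCODE mouse identifier on GRCm38. Groups came from sample titles. A group-means model over all 8 libraries was fitted in R 4.3.3 with edgeR 4.0.16 (TMM, filterByExpr, robust quasi-likelihood, two-sided). The resident libraries enter the filter, the scaling and the estimate of spread. A gene passed when its p, adjusted by Benjamini-Hochberg, was under 0.05. In all 11828 genes were tested, with a common biological coefficient of variation of 1.12. CPM use TMM-adjusted library sizes, and values without overlap are those where both libraries of a subset lie on 1 side of both others. A count of 3 in each library is the floor for a subset without counts, and a fold given as at least a value is the mean CPM of 1 subset over the mean of that floor in CPM. Ratios with 1 to 3 counts in a subset carry exact 95% intervals. Simulated counts were also run through the fit, and the outcome is not reported here.

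Named genes are those that passed, the 12 with the smallest p in each direction (mean log2 CPM of at least 3.05, no overlap, at least 10 counts in each library of the higher subset, no predicted models, ribosomal pseudogenes or antigen receptor segments), the 10 most abundant genes of each subset outside the mitochondrial genome, Siglecf, Cd101, Il5ra and Epx, and up to 4 members of each list with the smallest p. Some genes that the rule takes are not reported here. Other list members given in the text were chosen after their values were seen. The comparison, the 39 gene lists and the rule were chosen with earlier results of these data known. Alternatives were 4 other scalings, DESeq2 1.42.0, limma-voom 3.58.1, other filters, the subset libraries alone, a replicate block and each library left out. Same-numbered samples did not deviate together (correlation 0.0066 across genes), so the numbers were not taken to pair samples. The labels do not settle this, and a low correlation between replicates that agree so loosely cannot exclude a pairing.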

Additional observations from a re-analysis of the deposited data

Results flagged for a closer look

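In the resident libraries, used here for spread, 2 sums of markers held a library far from the other 3, and chance alone sets 1 library of a group this far apart in about 1 in 20 groups. The summed monocyte markers were 514 CPM in 1 resident library and 410 to 419 CPM in the others, a gap of 0.915 of the whole range. The summed erythroid and platelet markers were 9796 CPM in 1 resident library and 999 to 2374 CPM in the others, a gap of 0.844 of the range. The 4 subset libraries lay at 251 to 300 CPM for monocyte markers and at 2692 to 7679 CPM for erythroid and platelet markers.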

How the results depend on the processing

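The number of genes that passed depended on the tool and the filter. Against 1 higher and 0 lower, DESeq2 called 712 and 557, limma-voom 0 and 0, edgeR without a filter on low counts 41 and 44, and edgeR on the 4 subset libraries alone 0 and 0. As each library was left out in turn, 0 to 1 passed as higher and 0 to 1 as lower. A replicate block on the subset libraries, by numbers that were not taken to pair samples, gave 3 higher (Arhgap1, L3mbtl3 and Gm26870) and 1 lower (Copa). Arhgap1 passed under the 4 other scalings, the stricter filter of 20 counts in 2 libraries, the non-robust fit, DESeq2, no filter and each resident library left out. Over 95 genes named in the text and 19 alternatives, 15 of 1772 values changed sign, in 9 genes that did not pass. Over the 174 tested genes that the naming rule takes, reported or not, 31 of 3160 values changed sign, in 25 genes, all of them as a library was left out and 2 also under another alternative; Arhgap1 was not among them. Hba-a2 became 0.15 with limma-voom and 0.22 with the replicate block, and Ear1 0.72 and 0.82. As each library was left out, the log2 difference ranged from -1.05 to 1.11 for Hba-a2, -2.98 to 8.81 for Ear1, -1.24 to 0.17 for Scgb1a1, -1.28 to 0.30 for Chil3, -1.25 to 0.17 for Retnla, -0.17 to 0.54 for Rpl4, -9.24 to 6.92 for Ccr3, -7.13 to 3.48 for Ifitm1 and -2.04 to 0.43 for C1qb. The causes were not tested. Of 740 medians of lists under alternatives, 64 moved by more than 1 SD between replicates, and the list of mitochondrial protein genes has no value with that genome left out. With 444902 to 552121 counts outside the mitochondrial genome per subset library, a gene without counts may still reach 1.59 to 2.18 CPM, and most single genes of a few counts cannot be told apart between subsets. Counts of genes without overlap were also made, after seeing the data, at total counts and at counts outside the mitochondrial genome.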

Other observations

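Carbohydrate metabolism and tissue remodelling genes had members on both sides. Of 22 tested genes of glycolysis and the hypoxia response, 6 were lower and 2 higher in both SiglecFhi/CD101+ libraries, beside 11.9% and 15.8% of all tested genes. By edgeR 0 passed, while DESeq2 called 3 lower and 0 higher, beside 6.1% and 7.8% of all. Tpi1, a glycolytic isomerase, had 110 and 56.5 CPM in the Siglec-Fint/CD101- libraries and 13.3 and 9.76 CPM in the SiglecFhi/CD101+ libraries. Egln1, an oxygen-sensing hydroxylase, had 105 and 7 counts against 1 and 0, and Hk1, a hexokinase, 6 and 73 against 3 and 2, so that each was carried by 1 Siglec-Fint/CD101- library. Of 22 tested remodelling genes, 7 were lower and 4 higher in both, and 0 passed. These are 31.8% and 18.2%, beside 11.9% and 15.8% of all tested genes, and with total counts 5 were lower and 5 higher. The median log2 difference of the remodelling list was 0.59 and ranged from -0.93 to 0.67 as each library was left out. Timp1, an inhibitor of metalloproteinases, had 30 and 36 counts against 0 and 0, at least 12.9-fold lower in SiglecFhi/CD101+ cells, and 0.00 to 0.199 CPM in resident libraries. Mmp2, a gelatinase, had 0 and 9 counts against 212 and 20.

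Cholesterol genes had a median log2 difference of 0.85, or 0.90 with genes without counts at their bound, beside 0 and 0.11 over all tested genes. The list's median ranged from -0.44 to 1.78 as each library was left out, so its sign was not stable. For its 3 genes of at least 64 CPM it was -0.78, beside -0.34 for all genes at that level. Of 21 tested 2 were higher and 2 lower in both SiglecFhi/CD101+ libraries, beside 15.8% and 11.9% of all tested genes, and 0 passed by edgeR. Fdft1 and Hmgcs1, enzymes of synthesis, had 26 and 21 counts in SiglecFhi/CD101+ replicate 1 and 0 in the other 3 libraries. Cdh1, an epithelial cadherin also found on some immune cells, had 108 and 39 counts against 0 and 1, a ratio of 174 for Siglec-Fint/CD101- over SiglecFhi/CD101+ (95% counting interval 30.7 to 6903). Kit, the stem cell factor receptor, had 21 and 47 counts against 1 and 1. Of 22 tested interferon-stimulated genes 4 were higher and 1 lower in both SiglecFhi/CD101+ libraries, near the shares of all tested genes, and 0 passed. Stat2, a transcription factor of interferon signalling, had 3 and 0 counts against 35 and 81. Ifit1, an interferon-induced RNA-binding protein, had 108 and 13 counts against 2 and 0. Ifitm1, an interferon-induced membrane protein, had 389 and 3 against 2 and 69, with overlap.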
